A study of Mus musculus with 5 samples.

Results

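The homeodomain-interacting protein kinases Hipk1, Hipk2 and Hipk3, the p53 regulators Mdm2 and Mdm4, and the p53 gene Trp53 were followed through 5 RNA-sequencing libraries of mouse embryonic neural tube. The 6 genes were taken by symbol from the 23284 genes listed for each library, and all 6 were among the 12703 genes with more than 1 CPM (reads scaled to library totals) in at least 2 libraries. They were selected on the CPM difference between EpoR-null and control libraries in these same data, as families around the genes that differed. Their values in that contrast are therefore a description, for which no p-value is given and from which no support is drawn. The libraries came from embryos of matings between heterozygotes for the erythropoietin receptor, labelled embryonic day 8.5, from which neural tubes were freed by dissection and enzyme treatment. The study's own text gives a slightly later stage than the labels. Of the libraries, 2 were EpoR +/+ (WT), 1 was EpoR +/- (Het) and 2 were EpoR -/- (EpoR-null). The labels name no other allele, no treatment and no tissue-restricted deletion. WT and Het together served as the 3 controls, the grouping used by the authors. The labels do not say whether libraries of 1 genotype came from separate litters, so every p-value measures the spread between these samples alone.

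HIPK proteins are mostly nuclear serine/threonine kinases that phosphorylate transcription factors and cofactors, among them p53 itself. MDM2 is a ubiquitin ligase that marks p53 for degradation and is itself made from a p53 target gene, whereas MDM4 lacks strong ligase activity of its own, pairs with MDM2 and masks the transactivation domain of p53. In mice, combined loss of Hipk1 and Hipk2 disturbs closure of the neural tube, and embryos without Mdm2 or Mdm4 die unless p53 is removed as well.

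Between 19316126 and 41169218 reads per library were counted on genes, and a count of 0 allows a level of up to 3 reads, or 0.0715 to 0.152 CPM. Epor itself gave 57 and 68 reads in the WT libraries, 11 in the Het library, and 7 and 19 in the EpoR-null libraries. In CPM, the Het library at 0.476 (exact Poisson 95% interval 0.237 to 0.851, counting error only) lay between the EpoR-null libraries at 0.354 and 0.669, so Epor reads did not separate Het from EpoR-null. The Het library also stood apart in its summed red blood cell markers, at 44.2 CPM against 603 to 1694 CPM in the other 4, and in its endothelial markers, at 30.0 CPM against 249 to 439 CPM. It was lowest as well for somite and mesoderm markers, at 11.2 CPM against 40.5 to 123 CPM, and for surface ectoderm and endoderm markers, at 11.1 CPM against 24.9 to 41.02 CPM. Values without the Het library are therefore given for Hipk2 and Mdm4. Its label and the cell make-up of its dissection cannot be checked further from these counts. Summed neural tube markers ran from 1695 to 2216 CPM. The adult-type globin genes Hba-a1, Hba-a2 and Hbb-b1 had 0 reads everywhere. The part of these other cells in the values below was not tested, and in bulk tissue fewer cells of a type cannot be told apart from less RNA per cell.

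In the controls the 6 genes spanned a wide range of levels. Per kilobase of merged exons, Trp53 was highest at 52.7 ± 4.33 CPM per kilobase (SD, n = 3), followed by Mdm2 at 12.9 ± 0.684 and Hipk1 at 10.8 ± 0.912. Hipk3 followed at 5.74 ± 0.471, then Hipk2 at 5.08 ± 0.410 and Mdm4 at 4.74 ± 0.442 CPM per kilobase. The control range of Hipk2 (4.67 to 5.49) overlapped with those of Hipk3 (5.21 to 6.08) and Mdm4 (4.26 to 5.12), which did not overlap with each other, whereas those of Trp53, Mdm2 and Hipk1 did not overlap with any neighbour. Lengths decided the place of Mdm4, whose merged exons are 14798 bases against 7105 for its longest transcript. On longest transcripts Mdm4 took the fourth place, at 9.88 ± 0.920 CPM per kilobase, above Hipk3 at 6.16 and Hipk2 at 5.84. Hipk4, the remaining paralog, held 17 to 46 reads per library, or 0.775 to 1.1 CPM, and did not pass the level filter.

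**Figure D1:**
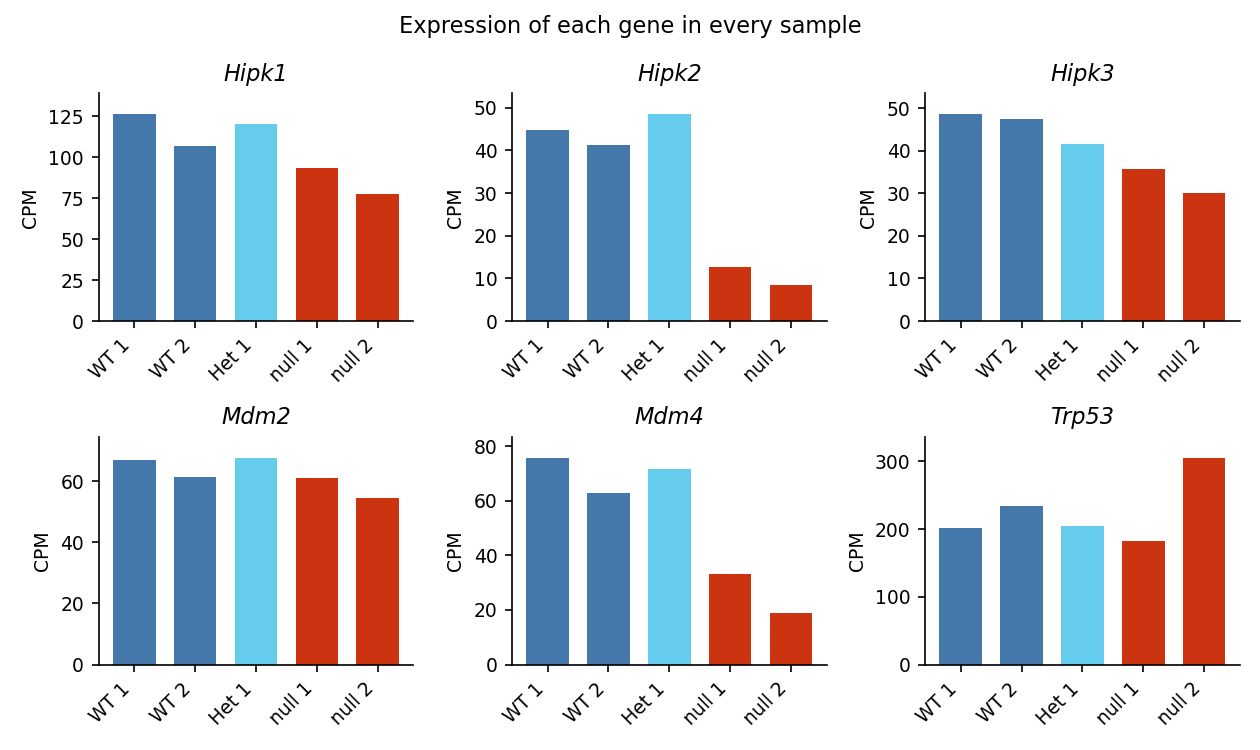
CPM of each of the 6 genes in the 5 libraries (one panel a gene, y axis in CPM from 0, 1 bar a library: dark blue WT, light blue Het, red EpoR-null). Hipk2 and Mdm4 show wide gaps between the groups, Hipk1 and Hipk3 narrower ones, Mdm2 almost touches, and the EpoR-null libraries lie on either side of the controls for Trp53.

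The stretches ahead of the transcription starts are shown for the paralog pairs, because one member of each pair had a large difference and its partner a small one. Each is the 250 bases upstream of the first start site that RefSeq lists for the gene (GRCm38.p6, 5′ to 3′ on the gene's strand). First means the order of listing, not the most upstream start. Capitals mark motif matches on either strand. The motifs searched were the GC box, spelled GGGCGG, and the CCAAT box. The letters of the STAT5 motif were TTCNNNGAA. Those of the NRF1 motif were TGCGCA, and a p53 half-site was searched by its consensus.
Hipk2, chr6:38876191-38876440, minus strand: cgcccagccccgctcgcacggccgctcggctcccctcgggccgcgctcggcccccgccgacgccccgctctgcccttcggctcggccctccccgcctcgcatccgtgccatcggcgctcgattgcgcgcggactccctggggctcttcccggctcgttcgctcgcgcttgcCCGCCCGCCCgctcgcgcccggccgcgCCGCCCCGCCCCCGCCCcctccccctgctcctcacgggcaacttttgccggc
Hipk1, chr3:103791562-103791811, minus strand: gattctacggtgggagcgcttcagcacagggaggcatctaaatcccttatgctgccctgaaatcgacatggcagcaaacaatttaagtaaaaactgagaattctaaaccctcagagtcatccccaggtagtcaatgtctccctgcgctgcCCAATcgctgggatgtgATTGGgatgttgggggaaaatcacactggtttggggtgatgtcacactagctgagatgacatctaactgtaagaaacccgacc
Mdm4, chr1:133025417-133025666, minus strand: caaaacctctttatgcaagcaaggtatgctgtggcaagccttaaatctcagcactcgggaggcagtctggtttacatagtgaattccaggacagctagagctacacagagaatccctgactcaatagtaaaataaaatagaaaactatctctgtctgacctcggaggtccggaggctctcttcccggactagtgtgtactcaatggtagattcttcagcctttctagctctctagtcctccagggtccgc
Mdm2, chr10:117710759-117711008, minus strand: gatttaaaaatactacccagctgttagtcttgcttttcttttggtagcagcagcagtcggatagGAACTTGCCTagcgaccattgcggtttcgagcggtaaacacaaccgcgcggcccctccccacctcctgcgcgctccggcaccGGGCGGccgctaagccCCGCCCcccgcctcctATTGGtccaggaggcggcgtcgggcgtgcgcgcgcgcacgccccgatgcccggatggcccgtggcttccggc
The Hipk2 stretch was 80.8% G and C with 43 CpG dinucleotides and held 5 GC box matches, some overlapping each other. That of Mdm4 was 47.2% G and C with 5 CpG and held no match. Mdm2 had 65.6% G and C, 29 CpG, 2 GC box matches, 1 CCAAT box match and 1 p53 half-site match, and Hipk1 had 48.8%, 6 CpG and 2 CCAAT box matches. The first start sites of Hipk3 and Trp53 had 74.0% and 52.8% G and C. A p53 half-site match also stood ahead of Trp53. Over 27025 promoter stretches of the same kind, the median was 52.0% G and C with 6 CpG. A GC box was found in 32.9% of them, a CCAAT box in 34.5%, a p53 half-site in 7.18%, a STAT5 motif in 7.18% and an NRF1 motif in 6.66%. The STAT5 and NRF1 letters occurred in 0 of the 6. RefSeq lists a second start site for Hipk1, Hipk2 and Mdm4, and composition differed between the starts of a gene. For Mdm4 the stretch shown lies inside the annotated gene (chr1:132959484-133030561). Its second stretch, chr1:133030588-133030837, lies upstream of the gene. The stretches shown for Hipk1, Hipk2 and Mdm2 lie at the upstream end of their genes, so that of Mdm4 is not at a like position. The second Hipk2 stretch had 52.8% G and C, 1 CpG and no match, the second of Mdm4 41.6%, 4 CpG and no match, and the second of Hipk1 69.6%, 24 CpG and no match. Which start sites were used was not measured, and the letters say nothing of factor binding.

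Hipk2 had the lowest EpoR-null values relative to control of the 6. Its level was 44.9 and 41.3 CPM in the WT libraries, 48.5 CPM in the Het library, and 12.8 and 8.45 CPM in the EpoR-null libraries. Both EpoR-null libraries therefore lay far below every control, on 253 and 240 reads against 1086 to 1732. The control mean was 44.9 ± 3.62 CPM (SD, n = 3) and the EpoR-null mean 10.6 ± 3.06 CPM (n = 2). On the log2 scale the EpoR-null value was lower by a fitted log2 fold change of -2.08 ± 0.24 (SE), equal to 23.6% of control, the 11th lowest of 12703 genes. The gene lies on mouse chromosome 6, at chr6:38694390-38876165 on the minus strand of GRCm38, the build of the annotation used here, and its longest transcript of 7684 bases carries a 3′ untranslated region of 3748 bases. Of the 65-base words of that transcript, 5.35% also occur in another gene, Ubn2, so the Hipk2 counts carry that uncertainty.

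Hipk1, which overlaps with Hipk2 in function in the embryo, showed a smaller difference. It stood at 126 and 107 CPM in WT, 120.1 CPM in Het, and 93.5 and 77.6 CPM in the EpoR-null libraries. Both EpoR-null values lay below the lowest control, WT replicate 2. Means were 118 ± 9.96 and 85.6 ± 11.2 CPM, a log2 fold change of -0.46 ± 0.16, or 72.7% of control. Hipk1 (chr3:103739815-103791563, minus strand) has an antisense gene, Gm15886, across 729 of its exonic bases, 6.68%, and the strand setting of the counting is not given in the sources used here.

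Hipk3, a kinase also known from its binding to the androgen receptor and to Fas, differed by nearly the same amount as Hipk1. Its values were 48.6 and 47.5 CPM in WT, 41.6 CPM in Het, and 35.7 and 30.1 CPM in the EpoR-null libraries. Here the Het library was the lowest control, and both EpoR-null libraries lay below it. The means of 45.9 ± 3.76 and 32.9 ± 3.94 CPM gave a log2 fold change of -0.48 ± 0.18, or 71.7% of control. Its locus is chr2:104426481-104494446 on the minus strand.

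Because the paralogs were read in the same library, the make-up of HIPK reads can be stated free of library scaling. Hipk2 supplied 20.4% and 21.1% of Hipk1, Hipk2 and Hipk3 reads in WT, 23.1% in Het, and 9.0% and 7.27% in the EpoR-null libraries. The Wilson 95% intervals of the EpoR-null shares were 8.0 to 10.1% and 6.44 to 8.21%, and they cover counting error only, not the spread between samples. Hipk1 went from 54.6 to 57.4% in controls to 65.8% and 66.8%, while Hipk3 went from 19.8 to 24.3% to 25.2% and 25.9%. For each read of Hipk2 there were 2.48 to 2.81 reads of Hipk1 in controls, and 7.32 and 9.18 in the EpoR-null libraries. Summed HIPK signal was 195 to 220 CPM in controls and 142 and 116 CPM in EpoR-null libraries and no paralog lay above its control range.

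Mdm4 had the other large difference. It was at 75.8 and 63.0 CPM in WT, 71.8 CPM in Het, and 33.1 and 18.7 CPM in the EpoR-null libraries. The groups did not overlap, but the EpoR-null libraries differed between themselves, the second holding 56.5% of the first. Means of 70.2 ± 6.54 and 25.9 ± 10.2 CPM gave a log2 fold change of -1.44 ± 0.28, or 36.8% of control, the 91st lowest of 12703. Mdm4 lies at chr1:132959484-133030561 on the minus strand. Of the 65-base words of its longest transcript, 10.4% also occur in another gene, chiefly the pseudogene Mdm4-ps, so its counts carry that uncertainty.

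Mdm2 was nearly level between the groups. It read 67.1 and 61.4 CPM in WT, 67.7 CPM in Het, and 61.2 and 54.7 CPM in the EpoR-null libraries. The first EpoR-null library sat only just under the lower WT library. Means of 65.4 ± 3.48 and 57.9 ± 4.58 CPM gave a log2 fold change of -0.18 ± 0.15 (95% interval -0.47 to 0.12), or 88.5% of control. No 65-base word of its longest transcript occurs in another gene. It lies at chr10:117688875-117710758 on the minus strand.

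Mdm4 supplied 53.02% and 50.6% of the reads of both MDM genes in WT, 51.4% in Het, and 35.1% and 25.5% in the EpoR-null libraries. Controls thus carried near-equal read numbers of both regulators, with 1.03 to 1.13 Mdm4 reads for each Mdm2 read, against 0.541 and 0.342 in EpoR-null. The mean share was 51.7 ± 1.22% (SD, n = 3) and 30.3 ± 6.80% (n = 2), and the spread within EpoR-null was the larger. Mdm4 and Mdm2 belong to different classes of transcript length. The median log2 fold changes of all tested genes in those classes were -0.36 and 0.04, as described below. The part of length in the share was not tested.

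**Figure D2:**
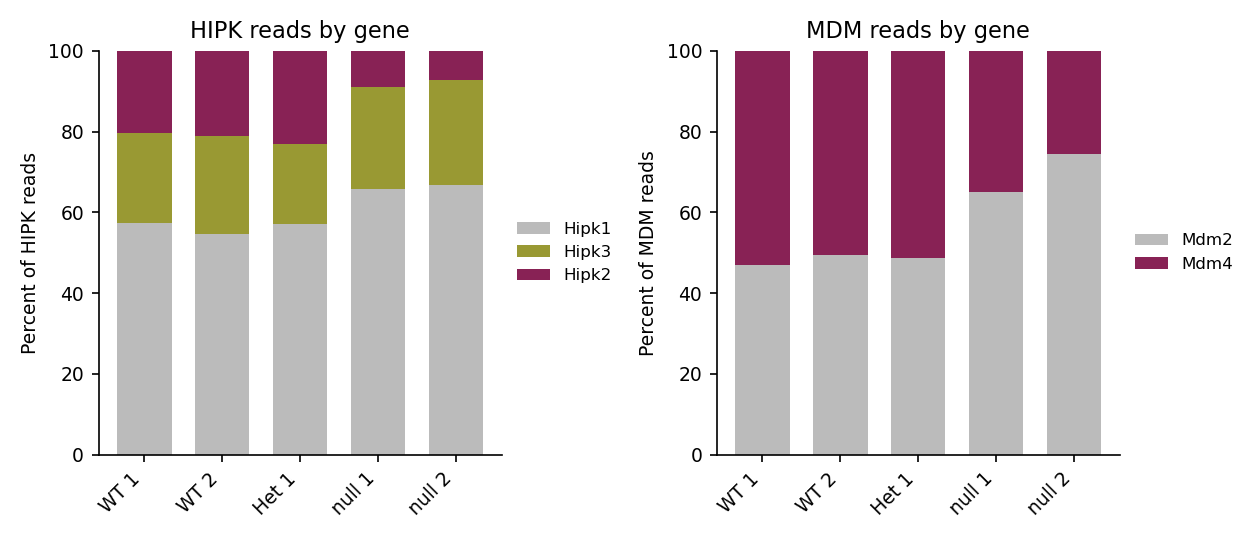
Percent of the reads of a family that fell on each paralog, in each library (left, the 3 HIPK genes; right, Mdm2 and Mdm4; stacked bars from 0 to 100%). Hipk2 shrinks from 20.4 to 23.1% in controls to 9.0% and 7.27%, and Mdm4 from 50.6 to 53.02% to 35.1% and 25.5%.

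Trp53 had no common direction in the EpoR-null libraries. Its level was 202 and 233 CPM in WT, 204 CPM in Het, and 183 and 305 CPM in the EpoR-null libraries. One EpoR-null library lay below and the other above all controls. The means of 213 ± 17.5 and 244 ± 86.7 CPM gave a log2 fold change of 0.20 ± 0.25, and the value turned to -0.22 when the second EpoR-null library was left out. The gene lies at chr11:69580359-69591873 on the plus strand. For each Trp53 read there were 0.270 to 0.375 Mdm4 reads in controls, and 0.181 and 0.0612 in EpoR-null. The corresponding Mdm2 ratio was 0.263 to 0.332 in controls and 0.335 and 0.179 in EpoR-null, so the first EpoR-null library lay just above the control range for Mdm2 and below it for Mdm4.

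**Figure D3:**
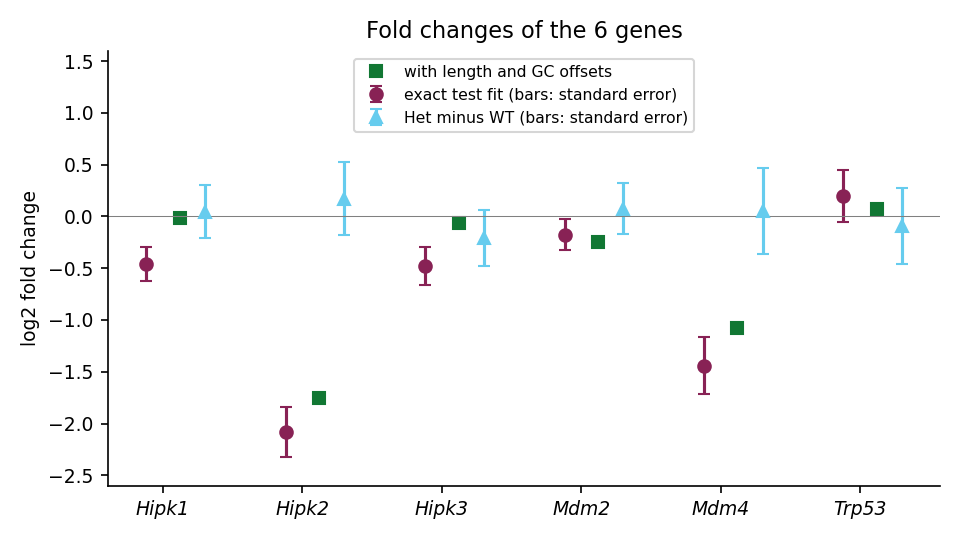
Log2 fold change (y axis) of each gene (x axis): EpoR-null minus controls (circles with SE bars), the same with length and GC offsets (squares) and Het minus WT (triangles with SE bars). EpoR-null minus controls runs from -2.08 for Hipk2 to 0.20 for Trp53, while Het minus WT stays between -0.21 and 0.17.

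By the rule of the study, an edgeR exact test with a p-value under 0.001 and a false discovery rate under 0.05, Hipk2 and Mdm4 counted as lower and the other 4 genes did not count in either direction. Among all tested genes, 3.84% were lower and 0.929% higher by that rule. In 5 of the 6 genes, all but Trp53, both EpoR-null libraries lay below all 3 controls, against 22.1% of tested genes, and 21.2% of tested genes lay above all 3. As the same contrast picked the genes, nothing is read from these counts. Of the EpoR-null libraries, the second was the lower in 5 genes, at 56.5 to 89.4% of the first, and the higher for Trp53, at 167%. Without the first EpoR-null library the fold changes were -2.41 for Hipk2 and -1.91 for Mdm4, and without the second they were -1.81 and -1.09. Without the Het library they were -2.02 and -1.42. Hipk1 and Hipk3 stood at -0.60 and -0.61 without the first EpoR-null library.

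Within the controls, the Het library can be set beside the WT pair. It was itself 1 of the 3 controls in the contrast that selected the genes, so these values too are a description. Het minus WT was 0.17 ± 0.35 (SE) for Hipk2 and 0.05 ± 0.42 for Mdm4 on the log2 scale, with Het 1.13 and 1.03 times the WT mean. Hipk1 (0.05 ± 0.25), Hipk3 (-0.21 ± 0.27), Mdm2 (0.08 ± 0.24) and Trp53 (-0.09 ± 0.37) were as close. With 1 Het library, whose spread was taken to be that of the other groups, the intervals were wide, from -0.52 to 0.87 for Hipk2 and from -0.77 to 0.86 for Mdm4. Genotype and library cannot be told apart here. Over all 12703 genes, 169, or 1.33%, were called in this comparison by the exact test of edgeR and 0 by its quasi-likelihood F-test, which had 416 at an unadjusted p under 0.05.

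Transcript length ran along with the EpoR-null difference across the whole transcriptome. In 11525 tested genes with an annotated transcript, split into 5 length classes of equal size, the median log2 fold change went from 0.36 in the shortest class to -0.36 in the longest class, which began at 5445 bases. The share called lower went from 0.173% to 16.1% across the same classes. Hipk1, Hipk2, Hipk3 and Mdm4 all belong to the longest class, with transcripts of 7105 to 7939 bases. Mdm2 (3145 bases) and Trp53 (3275 bases) belong to the third, with a median of 0.04. Classes and offsets used the longest transcript of any kind. The longest coding transcript of Trp53 has 1867 bases, a length of the shortest class (66 to 2077 bases, median 0.36). Relative to the median of their own class, Hipk1 and Hipk3 stood at -0.10 and -0.12, and Hipk2 and Mdm4 at -1.72 and -1.08. In a likelihood-ratio fit with a smooth offset for length and GC content in each library, the log2 fold change was -0.02 for Hipk1 and -0.06 for Hipk3, against -0.48 and -0.50 in the same fit without offsets. Hipk2 went from -2.10 to -1.75 and Mdm4 from -1.46 to -1.08 with the offsets, or 29.7% and 47.4% of control. Mdm2 was -0.24 and Trp53 0.07 with offsets. The part of transcript length, or of RNA quality that differs with it, in these differences was not tested.

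**Figure D4:**
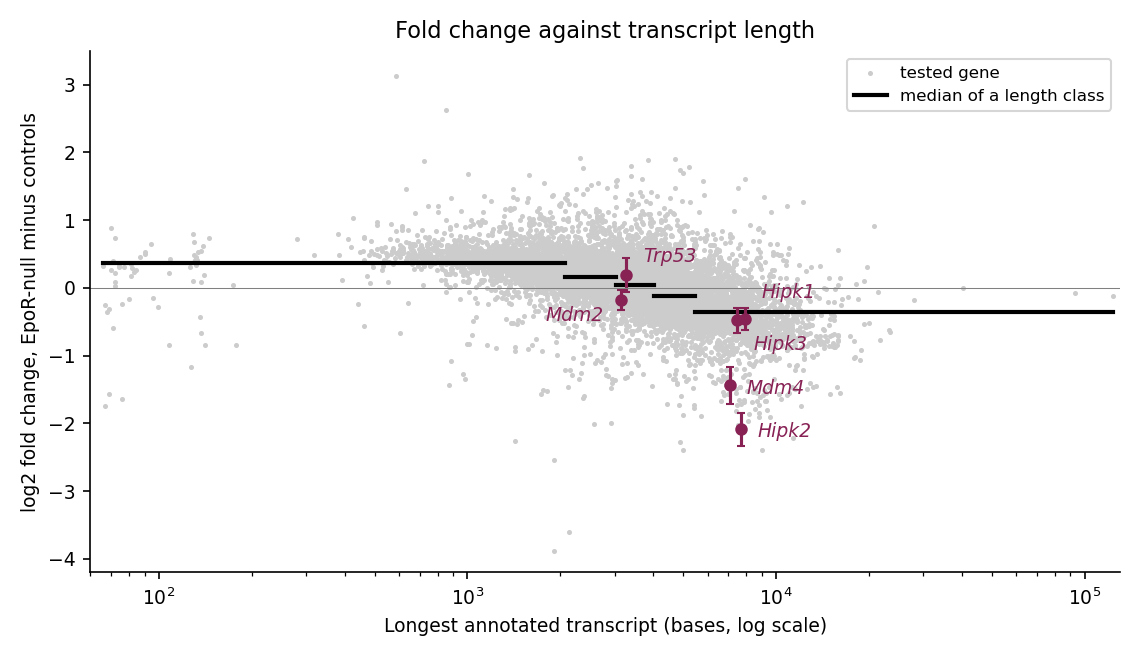
Log2 fold change, EpoR-null minus controls (y axis), against the length of the longest annotated transcript in bases (x axis, log scale) for tested genes (grey), with the median of each length class (black lines) and the 6 named genes with SE bars. Hipk1 and Hipk3 sit near the -0.36 median of the longest class, and Hipk2 and Mdm4 well under it.

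Nearest in pattern to each gene were those with the smallest root mean square difference of centred log2 CPM over the 5 libraries. For Hipk2 these were Eif2c2 (0.057), which encodes the Argonaute protein of RNA silencing AGO2, then Ccnt1 (0.141), the cyclin of the elongation kinase P-TEFb, and Ppp1r12b (0.156). Eif2c2 read 103 and 91.9 CPM in WT, 106 CPM in Het, and 31.4 and 19.8 CPM in EpoR-null. Mdm4 was near to Lyst (0.040) and Alg10b (0.045), whose own transcripts measure 13181 and 6644 bases. Hipk1 was nearest to Sec24a, Gm6300 and Ncapd3, Hipk3 to 9430020K01Rik, Bcl9l and 4931406P16Rik, Mdm2 to Fam33a, Yy1 and Fyttd1, and Trp53 to Entpd6, Thap4 and Lrwd1. Between the 6 genes themselves, Hipk1 and Hipk3 were closest at 0.115. Hipk2 was nearer to Mdm4 (0.314) than to its paralogs Hipk1 (0.811) and Hipk3 (0.814). The distances between the 6 genes contain the EpoR-null contrast that selected them, so they restate it and are a description only. The search ran over all tested genes, so near neighbours exist for any pattern.

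The genes around these 6 were tested in the EpoR-null contrast as 7 lists with 116 tested genes in all, adjusted over all 12703 genes. The lists were chosen with earlier results of these data known, so their shares of calls are not independent evidence. The study had already reported lower Atm, Atr and Cdk12 in EpoR-null from these libraries, and, of the 6 genes, lower Hipk2 and Mdm4. By the exact test 8 of the 116 fell and 0 rose, where 3.84% of all tested genes were called lower and 0.929% higher, and the median log2 fold change of the 116 was -0.05 against 0.06 over all tested genes. All 8 were among the 21 list genes in the longest class of transcripts (median -0.50), a class in which 16.1% of all genes were called lower, and the median of the 92 shorter ones was 0.03. The quasi-likelihood F-test called 0 in each list, with 2 to 6 genes a list at an unadjusted p under 0.05, and 0 of all genes, with 3052 at that level. In the counts below that leave out 1 EpoR-null library, the spread of the remaining one was taken to be that of the controls.

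Among 24 tested HIPK partners and regulators, 2 fell (8.33%, against 3.84% of all tested genes) and 22 were not called. They were the paired acetyltransferases Ep300 and Crebbp, which acetylate histones and p53. Ep300 read 133, 123 and 131 CPM in WT and Het and 75.5 and 69.5 CPM in EpoR-null, a log2 fold change of -0.83 ± 0.13 (adjusted p = 5.2e-07, exact test). Crebbp had -0.91 ± 0.20 (adjusted p = 0.000799, exact test). The corepressor Ctbp1, a HIPK2 substrate, had a log2 fold change of 0.08 and was not called. The list median was -0.03. Without WT replicate 1 the list had 1 call, without the first EpoR-null library 3 and without the second 4.

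Of 10 tested kinases related to the HIPK family, 2 fell (20.0%, against 3.84% of all tested genes). The list held kinases of the DYRK and CLK families, with Prpf4b and Cdk12 as further kinases of the same wider group. Dyrk2, a p53 kinase of the neighbouring DYRK family, read 26.9, 27.1 and 28.8 CPM in controls and 15.1 and 11.4 CPM in EpoR-null, a log2 fold change of -1.06 ± 0.22 (adjusted p = 0.000429, exact test). Cdk12, a kinase of the RNA polymerase II tail, had -0.63 ± 0.14 (adjusted p = 0.000514, exact test). Prpf4b (-0.59) and Dyrk1a (-0.27) were not called, and the list median was 0.06. The list had 0 calls without WT replicate 1, 1 without the Het library and 3 without the first EpoR-null library. Dyrk2 was the only one of the 8 that the fit with length and GC offsets still called, at -0.78 (adjusted p = 0.0104, likelihood-ratio test of edgeR). The others of the 8, some described below, were nearer to no difference in that fit. Crebbp stood at -0.42, Cdk12 at -0.36, Ep300 at -0.35, Setd7 at -0.34, Atm at -0.27, Huwe1 at -0.12 and Atr at -0.08.

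MDM2 and MDM4 regulators gave 0 calls in 16 tested genes by the exact test, with 4 at an unadjusted p under 0.05, and 3 calls by DESeq2 and 3 without the first EpoR-null library. The ribosomal proteins Rpl5 and Rpl11, which bind and inhibit MDM2, had log2 fold changes of 0.26 and 0.44. Their transcripts of 2045 and 917 bases belong to the shortest class, whose median was 0.36. With length and GC offsets they stood at 0.06 and -0.08. Of 11 other ubiquitin ligases of p53, 1 fell (9.09%, against 3.84% of all tested genes). This was Huwe1, which went from 484 ± 22.7 CPM (SD, n = 3) to 282 ± 6.58 CPM (n = 2), a log2 fold change of -0.78 ± 0.14 (adjusted p = 8.3e-06, exact test). Trim28 (0.19) and Ddb1 (-0.15) were not called. The medians of these lists were -0.09 and -0.13.

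Among 18 tested members and cofactors of the p53 family, 3 fell (16.7%, against 3.84% of all tested genes), namely Ep300, Crebbp and the lysine methyltransferase Setd7 (-0.77 ± 0.14, adjusted p = 2.7e-05, exact test). Prmt5 (0.05) and Hdac1 (0.13) were not called, Trp63 and Trp73 were below the level filter, and the median was -0.0025. Leaving out WT replicate 1 gave 2 calls in this list and leaving out the first EpoR-null library 5. Of 16 kinases that phosphorylate p53 or MDM proteins, Dyrk2 and the DNA damage kinases Atm (-0.84 ± 0.15, adjusted p = 1.3e-05, exact test) and Atr (-0.60 ± 0.17, adjusted p = 0.0140, exact test) fell, 18.8% of the list against the same 3.84%. Csnk1d (0.01) and Abl1 (-0.30) were not called, and the median was -0.08. These kinases had 1 call without WT replicate 1, 2 without the Het library and 4 without the first EpoR-null library.

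None of 25 tested p53 target genes was called by the exact test, which gave 3 at an unadjusted p under 0.05, and DESeq2 and the quasi-likelihood F-test also called 0. Leaving out the first EpoR-null library gave 2 calls and leaving out the second 1. The list median was -0.04. Values ran from -0.99 ± 0.40 for the receptor gene Eda2r to 0.67 ± 0.49 for the cell cycle inhibitor Cdkn1a. Cdkn1a read 2.77, 3.24 and 2.85 CPM in controls and 6.67 and 2.78 CPM in EpoR-null, so 1 EpoR-null library lay above all controls and the other within their range. Eda2r and Cdkn1a were chosen after their values were seen. Ei24 (0.16) and Ckap2 (-0.15), the targets with the most reads, and Mdm2, itself a p53 target, showed small differences. Perp, Fas, Ptprv and Gdf15 were below the level filter.

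**Figure D5:**
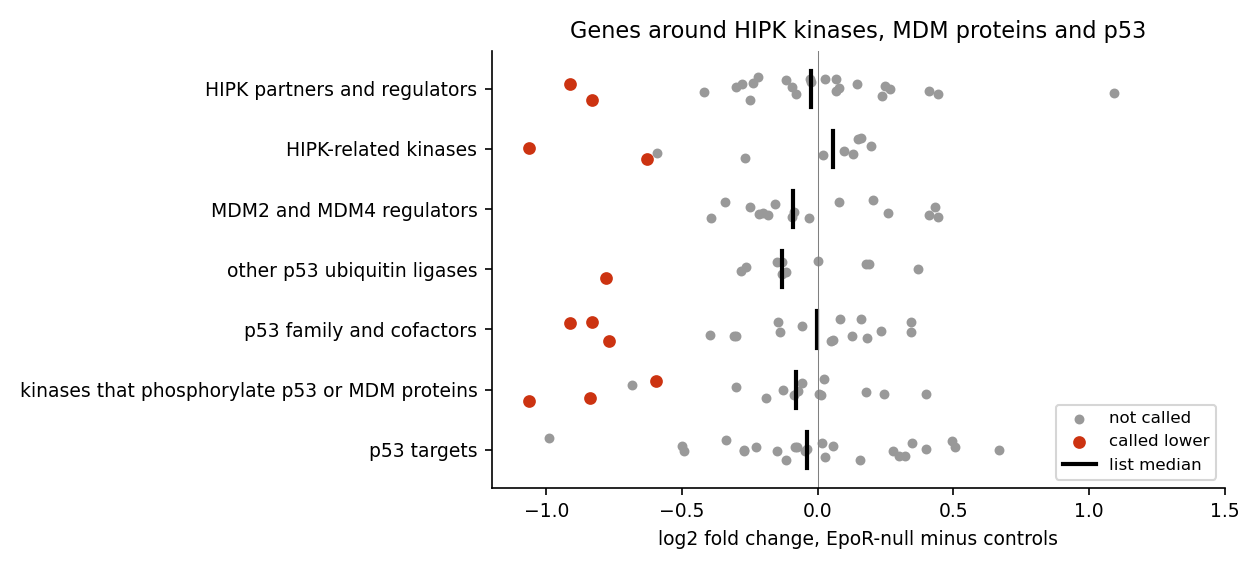
Log2 fold change, EpoR-null minus controls (x axis), of every tested gene in the 7 lists around HIPK kinases, MDM proteins and p53 (grey, not called; red, called lower; black bar, list median). The list medians lie between -0.13 and 0.06, and red points occur in 5 of the 7 lists.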

How the data were processed

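Poly(A) RNA of dissected neural tubes was sequenced by the authors, who deposited raw read counts per gene symbol for each library. Per the labels and the submitters' processing notes, reads were trimmed with Trimmomatic 0.32, aligned with TopHat2 2.1.0 and counted with HTSeq 0.6.1. The notes name build mm9 where the study's methods name a human build, and the annotation and strand setting are not given in the sources used here. Coordinates, lengths and promoter stretches come from GRCm38 (GENCODE and RefSeq). Counter summary lines (7.10 to 9.75% without a feature and 10.7 to 12.5% not uniquely aligned, of the summed counts of a file) were left out.

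Genes above 1 CPM in at least 2 libraries were tested in edgeR 4.0.16 (R 4.3.3) with TMM scaling and the exact test used by the study, and called at p under 0.001 and a false discovery rate under 0.05. CPM use TMM-scaled totals. Standard errors and 95% intervals come from the fitted log2 fold change. Alternatives were the edgeR quasi-likelihood and likelihood-ratio tests, DESeq2 1.42.0, other scalings and filters, thinning, a replicate block, length and GC offsets, and each library left out. The 6 genes and all lists were chosen with earlier results of these data known. Named list genes are all called ones (at most 4) and the 2 uncalled with the most reads; some items that this rule names are not reported here. Intervals of counts and shares cover counting error only. The code was tested on simulated data.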

Additional observations from a re-analysis of the deposited data

How the results depend on the processing

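Hipk2 was lower in EpoR-null libraries under all 15 alternatives (log2 fold change -2.41 to -1.75) and Mdm4 as well (-1.91 to -1.08), values of the contrast that selected them. Hipk1 and Hipk3 kept their direction (-0.60 to -0.02 and -0.61 to -0.06), as did Mdm2 (-0.26 to -0.10), whereas Trp53 ran from -0.22 to 0.52. Over all genes, the 606 calls became 1028 with DESeq2, 180 with the length and GC offsets, 0 with the quasi-likelihood F-test and 115 to 2296 when 1 library was left out (115 without WT replicate 1, 294 without WT replicate 2, 253 without Het, 2296 without the first and 980 without the second EpoR-null library). Calls of HIPK partners, 2, became 0 with offsets, 0 with the quasi-likelihood F-test and 1 to 4 with a library left out. Calls of HIPK-related kinases, 2, became 1, 0 and 0 to 3 in the same settings, those of the kinases of p53 and MDM proteins, 3, became 1, 0 and 1 to 4, and those of the p53 family list, 3, became 0, 0 and 2 to 5. The other ubiquitin ligases went from 1 to 0 with offsets and to 0 with the quasi-likelihood F-test. MDM regulators went from 0 to 3 with DESeq2 and 0 to 3 with a library left out, and p53 targets from 0 to 0 to 2 with a library left out. Het against WT, 169 calls, gave 0 with the quasi-likelihood F-test and 50 to 102 with a WT library left out. The Mdm4 share, 21.4 percentage points lower in EpoR-null libraries (-21.4), gave -13.8 on reads per kilobase and -26.2 to -16.6 with a library left out. The cause of these changes was not tested. Fits with a library left out had fewer samples. In those without 1 EpoR-null library, the spread within a group came from the controls alone.

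WT and EpoR-null libraries share replicate numbers, but nothing in the labels ties equal numbers to a litter or day, and across genes the difference between WT 1 and 2 had a Pearson correlation of 0.427 with that between EpoR-null 1 and 2. The Spearman correlation of log2 CPM was 0.964 between the EpoR-null libraries and 0.995 between the WT libraries. EpoR-null 1 stood at 0.981 and 0.977 with WT 1 and 2, and EpoR-null 2 at 0.966 and 0.976. The EpoR-null libraries were thus less alike than either was to WT. With Het they stood at 0.969 and 0.962. With the replicate number as a block in the quasi-likelihood F-test, 291 genes were called, 1 HIPK partner, 2 HIPK-related kinases, 1 kinase of p53 and MDM proteins, 2 of the p53 family list, 1 other ubiquitin ligase, 0 MDM regulators and 0 p53 targets, and 4 genes for Het against WT. Hipk2 was -2.05 and Mdm4 -1.41 with this block.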
